A study of Arabidopsis thaliana with 6 samples.

Results

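Plant cells break down stored oil and membrane lipids by releasing fatty acids with lipases, importing them into peroxisomes and shortening them there by beta-oxidation. The 38 Arabidopsis thaliana genes described here encode steps of that route and parts of the peroxisome itself. They were chosen by function, by listing loci for lipases, peroxisomal import, beta-oxidation, the glyoxylate cycle, gluconeogenesis, catalases and peroxins, and they stand among 21671 transcripts with a read in at least 1 library. RNA was sequenced from leaf mesophyll protoplasts of the Col-0 ecotype, leaf cells from which the wall has been removed. Protoplasts of the GmWRI1 group were transfected with 35S:GmWRI1, a plasmid carrying the cDNA of the soybean transcription factor GmWRI1-A behind the constitutive CaMV 35S promoter. Protoplasts of the mCHERRY group were transfected with 35S:mCHERRY, which encodes a red fluorescent protein and served as the negative control. RNA was taken 16 h after transfection from 3 biological replicates per group. Each library averages a pool of transfected cells, and the share of cells that took up the plasmid is not given in the sources used here.

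WRINKLED1 (WRI1) is an AP2-type transcription factor known for raising fatty acid synthesis in developing seeds, and the comparison asks whether genes of fatty acid breakdown rose along with those of synthesis. In peroxisomal beta-oxidation an acyl-CoA oxidase (ACX) opens each round, a multifunctional protein carries out the middle steps, and a 3-ketoacyl-CoA thiolase (KAT) releases acetyl-CoA. The pathway is best known for feeding oilseed seedlings before they can photosynthesize, when the glyoxylate cycle turns acetyl-CoA into precursors of sugar. In leaves it also serves fatty acid turnover and the last steps of jasmonate synthesis.

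Of the 38 genes, 35 had enough reads to be tested. Relative to mCHERRY, GmWRI1 libraries had higher mRNA levels of 4 of them past both limits used here, a log2 fold change over 1 together with an adjusted p under 0.05 in edgeR's quasi-likelihood test. These up-regulated genes were the thiolase gene KAT5, the acyl-CoA oxidase genes ACX5 and ACX4, and the peroxisome proliferation gene PEX11E. They made up 11.4% of the tested genes of the group, beside 9.44% of all 14762 genes tested. None of the group was down-regulated past both limits, beside 1.45% of all genes. That count was also 0 with an unadjusted p under 0.05, with the DESeq2 Wald test and with the edgeR exact test. By the adjusted p alone, 13 genes (37.1%) were higher and 3 (8.57%) lower, beside 20.4% and 14.6% of all genes tested, and the remaining 19 did not pass. The median log2 fold change of the 35 genes was 0.12, beside -0.01 for all genes tested, and ranged from -0.61 to 5.09. These are bulk RNA measurements, in which fewer cells expressing a gene and less of its RNA per cell cannot be told apart.

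**Figure D1:**
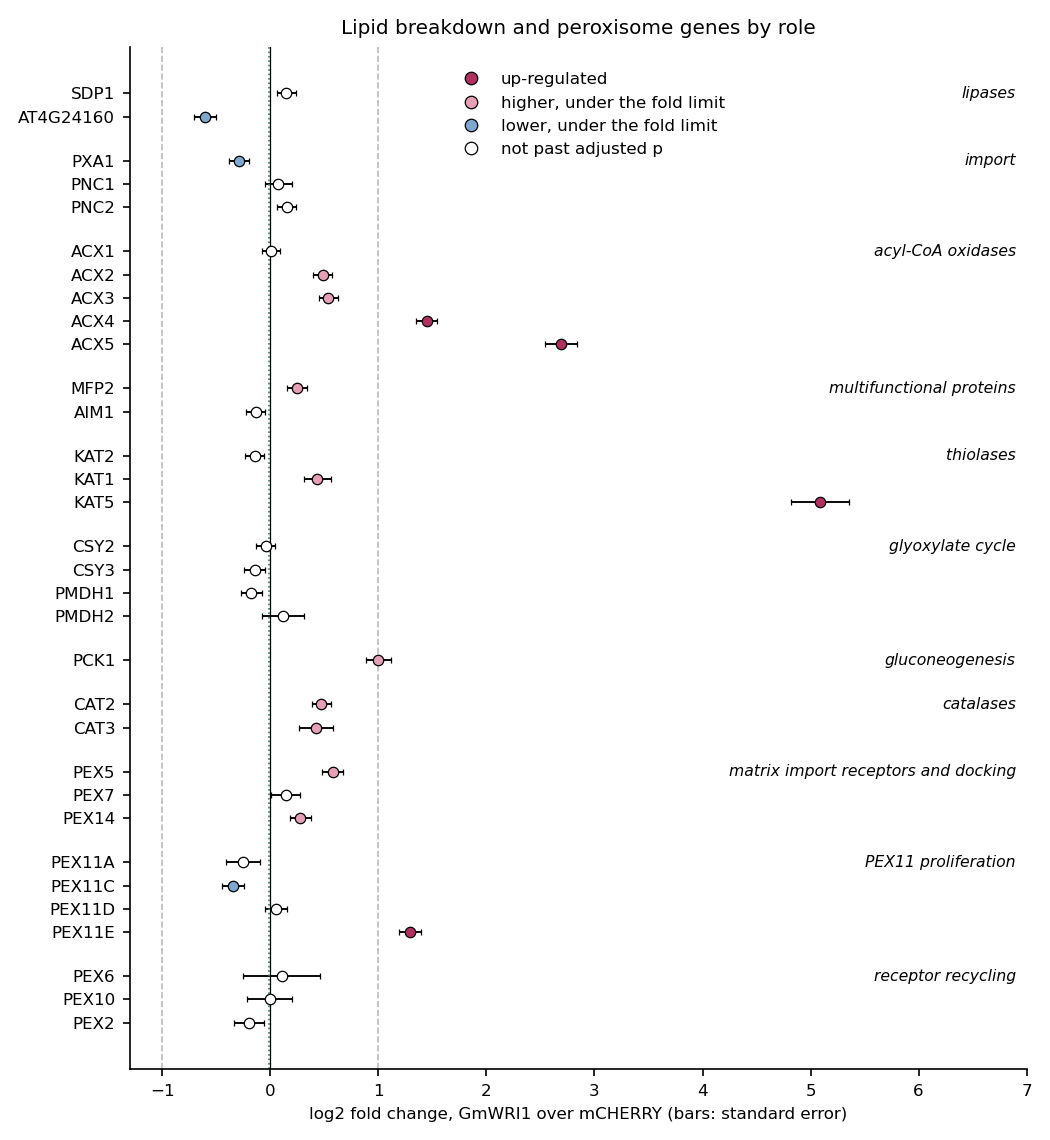
Log2 fold change of GmWRI1 over mCHERRY (x axis) for 32 of the 35 tested genes, grouped by role, with standard errors as bars and colours giving the edgeR call; dashed lines mark a log2 fold change of 1 in either direction and the dotted line the median of all tested genes. KAT5 (5.09), ACX5 (2.69), ACX4 (1.45) and PEX11E (1.29) lie past the upper line, PCK1 (0.998) lies on it, and most of the others lie between -0.4 and 0.6.

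Because WRI1 binds a DNA element named the AW Box (CNTNGNNNNNNNCG, where N is any base), its matches in these genes are shown before the expression values. The full motif was searched on both strands from the annotated start of each counted transcript (TSS) to 500 bases downstream. At least 1 match lay there in 19 of the 38 genes (50.0%), beside 42.8% of 14616 tested nuclear genes. For the lists described below it was 24 of 28 fatty acid synthesis genes (85.7%) and 24 of 37 other peroxisome genes (64.9%). Up-regulated were 26 of the 28 synthesis genes and 0 of 34 tested other peroxisome genes, beside 9.44% of all genes tested. Within 500 bases upstream the share was 5 of 38 (13.2%), beside 19.5% of tested nuclear genes. The sites below are the matches in that window of ACX5, ACX4 and PEX11E, the 5′ UTR match of KAT5 beyond it, the window matches of ACX1, which did not pass the test, and the 5′ UTR match of AT4G24160, which was lower. Each is printed as 30 bases 5′ to 3′ on the strand on which the motif reads, with the fixed letters of the motif in capitals, from the RefSeq TAIR10.1 assembly, and the coordinates are those of the 14-base motif.
ACX5, coding exon, chr2:15000039-15000052, minus strand: atcgaaagCgTgGcgggaacCGgcccagac
ACX5, intron, chr2:15000137-15000150, minus strand: gaaattcaCaTcGgaaatgtCGccggaaaa
ACX4, 5′ UTR, chr3:19229042-19229055, plus strand: ttctttggCtTcGtgatgatCGaatgttga
PEX11E, 5′ UTR, chr3:22606531-22606544, plus strand: tccacttaCcTaGatgatcaCGataacgac
KAT5, 5′ UTR, chr5:19817137-19817150, minus strand: ctgaagctCaTtGtacttaaCGtcttcccc
ACX1, coding exon, chr4:9428557-9428570, minus strand: attgcccgCcTtGtcgccagCGatccggtg
ACX1, intron, chr4:9428530-9428543, minus strand: gtgaatttCtTcGcgattctCGttgatttt
AT4G24160, 5′ UTR, chr4:12539682-12539695, plus strand: atacgtgaCgTcGgcaatgaCGcgtgcgaa

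The ACX5 motifs shown start 313 and 411 bases downstream of the TSS, the ACX4 motif 286 bases and the PEX11E motif 253 bases. Outside the window and not printed, ACX5 has a further match at 835, ACX4 at -36 and PEX11E at -44. The KAT5 motif lies 805 bases downstream, in the long 5′ UTR of the counted transcript, and so outside the window. ACX1 has motifs at 324 and 351 bases, and the AT4G24160 motif shown lies at 26 bases. Of the 3 lower genes, AT4G24160 has 3 matches in the window, of which those at 321 bases, on both strands, are not printed. PXA1 and PEX11C have 0 there and 0 upstream. Of the 18 tested genes with a match in the window, 3 were up-regulated and the median log2 fold change was 0.21. Of the 17 without, 1 was up-regulated and the median was 0.08, beside 9.44% up-regulated among all genes tested, and the difference between these counts was not tested. ACX2 held the most matches in the window (7), and PEX7 held 5, with log2 fold changes of 0.48 and 0.14.

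**Figure D2:**
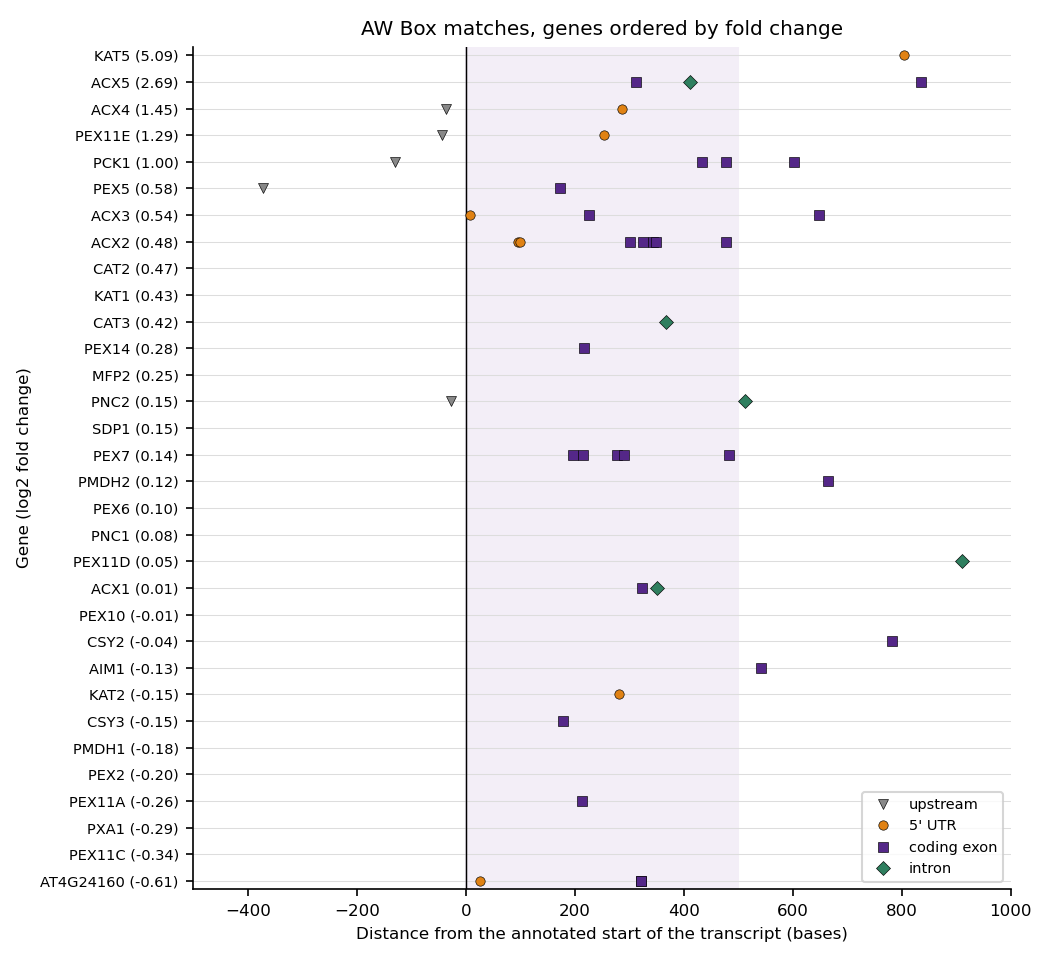
Position of AW Box matches relative to the annotated transcript start (x axis, in bases, downstream positive) in 32 of the 35 tested genes, ordered by log2 fold change given beside each name; the shaded band is the window from 0 to 500 bases, and symbols give the feature in which a match lies. ACX5, ACX4 and PEX11E carry matches in the band, KAT5 carries its match at 805, and genes near the bottom of the order, such as AT4G24160, carry matches as well.

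Lipases free the fatty acids that enter the route. SDP1 (AT5G04040), the main triacylglycerol lipase of germinating seeds, had 139 ± 8.68 CPM (TMM-scaled counts relative to library size; SD, n = 3) in mCHERRY and 154 ± 3.14 in GmWRI1 libraries, and its log2 fold change of 0.15 did not pass the test (edgeR adjusted p = 0.211). Its homolog SDP1L (AT3G57140) was not tested, with 3, 3 and 0 counts in mCHERRY and 4, 5 and 2 in GmWRI1 libraries 1, 2 and 3. AT4G24160 encodes an alpha/beta-hydrolase with lipase and lysophosphatidic acid acyltransferase activities. Its levels were 359, 324 and 268 CPM in mCHERRY and 226, 206 and 192 CPM in GmWRI1 libraries. All GmWRI1 libraries lay below all mCHERRY libraries, and the log2 fold change was -0.61 (SE 0.10, edgeR adjusted p = 7.85e-05), a level 34.4% lower that did not reach the fold limit.

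Fatty acids enter the peroxisome through the ABC transporter PXA1 (AT4G39850), and PNC1 and PNC2 carry in the ATP that activates them. PXA1 was slightly lower in GmWRI1 libraries, at 172 ± 16.6 CPM against 210 ± 8.11 (SD, n = 3; log2 fold change -0.29, edgeR adjusted p = 0.0185). Leaving out GmWRI1 replicate 2 gave -0.21 (edgeR adjusted p = 0.093) and leaving out mCHERRY replicate 3 gave -0.26 (edgeR adjusted p = 0.0523). PNC1 and PNC2 did not pass the test, with log2 fold changes of 0.08 and 0.15.

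Of the acyl-CoA oxidase genes, 4 of 5 were higher by the adjusted p, beside 20.4% of all genes tested. The family divides its substrates by chain length: ACX1 and ACX5 are close homologs that act on medium to long chains and in jasmonate synthesis, ACX2 prefers long chains, ACX3 medium chains and ACX4 short chains. ACX5 (AT2G35690) was at 21.8, 13.8 and 14.1 CPM in mCHERRY and 109, 125 and 95.9 CPM in GmWRI1 libraries. It rose 6.47-fold (log2 2.69, SE 0.15, edgeR adjusted p = 4.07e-12), and the lowest GmWRI1 library lay far above the highest mCHERRY library.

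ACX4 (AT3G51840) was at 92.6, 98.2 and 100.4 CPM in mCHERRY and 262, 286 and 243 CPM in GmWRI1 libraries. The groups were well separated, with a 2.73-fold rise (log2 1.45, SE 0.09, edgeR adjusted p = 5.75e-11). ACX3 (AT1G06290) rose less, from 151, 133 and 137 CPM to 208, 198 and 205 CPM (log2 fold change 0.54, SE 0.09, edgeR adjusted p = 6e-05), again without overlap. Of the 36-base stretches of the ACX3 transcript, 19.7% also occur in transcripts of other genes, among them ACX6, so reads from those stretches were discarded or cannot be assigned with certainty. ACX2 (AT5G65110) rose by 39.8%, from 256 ± 5.49 to 357 ± 14.4 CPM (SD, n = 3; edgeR adjusted p = 1.14e-04).

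ACX1 (AT4G16760), the most abundant of the family per kb, had nearly the same level in both groups, with 1049 ± 24.2 CPM in mCHERRY and 1055 ± 38.3 CPM in GmWRI1 libraries (SD, n = 3) and a fitted log2 difference of 0.0075 (SE 0.08, edgeR adjusted p = 0.957). Per kb of transcript, ACX1 made up 65.6% ± 0.305 of the summed level of ACX1 to ACX5 in mCHERRY and 50.3% ± 1.36 in GmWRI1 libraries (SD, n = 3). ACX4 took 8.14% ± 0.472 and 16.9% ± 1.02 of that sum and ACX5 1.11% ± 0.281 and 5.64% ± 0.597. The sum itself went from between 607 and 629 CPM per kb in mCHERRY libraries to between 774 and 827 in GmWRI1 libraries. The transcripts of ACX1 and ACX5 share 0.505% or less of their 36-base stretches, so their counts are largely separate.

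The middle steps of beta-oxidation are carried out by MFP2 and AIM1, multifunctional proteins with hydratase and dehydrogenase activities. MFP2 (AT3G06860) was higher by 18.7%, at 326 ± 21.6 against 274 ± 17.2 CPM (SD, n = 3; log2 fold change 0.25, edgeR adjusted p = 0.0354). Its adjusted p ran from 0.0518 to 0.176 without mCHERRY replicate 2, mCHERRY replicate 3, GmWRI1 replicate 1 or GmWRI1 replicate 3. AIM1 (AT4G29010), at 448 and 408 CPM, had a log2 fold change of -0.13 that did not pass the test.

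Thiolases end each round, and the group held the gene with the greatest fold change of the 35. For KAT5 (AT5G48880), mCHERRY libraries 1, 2 and 3 held 15, 10 and 1 counts and the corresponding GmWRI1 libraries 551, 430 and 184. In TMM-scaled CPM these were 1.83, 1.62 and 0.247 against 47.1, 59.4 and 37.2. mCHERRY replicate 3, with 1 count, lay under the floor of 3 counts, and all GmWRI1 libraries lay far above the mCHERRY libraries. The fitted rise was 34.0-fold (log2 5.09, SE 0.27, edgeR adjusted p = 1.8e-12), and over the 13 alternatives the log2 value ran from 4.77 to 5.47. The KAT5 locus gives peroxisomal and cytosolic forms of the enzyme from different transcripts, and the counts cover the primary transcript, so the forms were not told apart. Of its 36-base stretches, 5.09% are shared with AT5G48870.

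KAT2 (AT2G33150), the main thiolase of seedlings, did not pass the test, at 723 ± 53.5 CPM in mCHERRY and 654 ± 39.3 CPM in GmWRI1 libraries (SD, n = 3; log2 fold change -0.15, edgeR adjusted p = 0.222). KAT1 (AT1G04710) was higher by 35.2%, at 34.3 against 25.5 CPM (log2 fold change 0.43, edgeR adjusted p = 0.0102), with an adjusted p of 0.0694 without mCHERRY replicate 2 and 0.0546 without GmWRI1 replicate 2. Per kb of transcript, KAT5 rose from 0.144% ± 0.102 to 5.61% ± 1.49 of the summed level of the 3 thiolases, while KAT2 held 95.5% ± 0.166 and 88.4% ± 2.23 (SD, n = 3). The summed level of the 3 overlapped between groups, at 325 to 376 CPM per kb in mCHERRY and 334 to 358 in GmWRI1 libraries. The rise of KAT5 thus stood beside a family total that did not separate the groups.

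**Figure D3:**
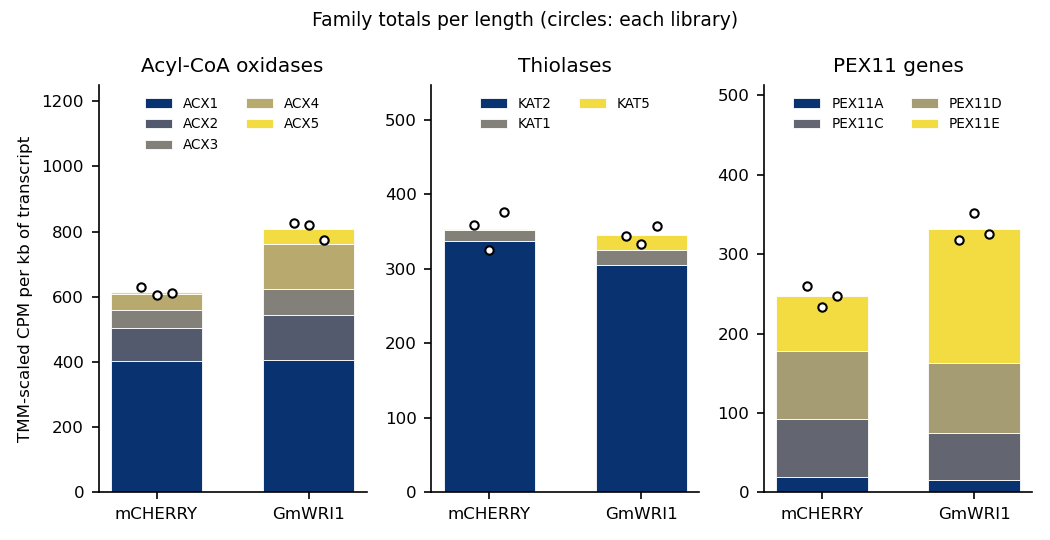
Mean TMM-scaled CPM per kb of transcript (y axis, from 0) of acyl-CoA oxidase, thiolase and 4 PEX11 genes in mCHERRY and GmWRI1 libraries, stacked by gene, with circles for their total in each of 3 libraries per group. The oxidase and PEX11 totals of GmWRI1 libraries (774 to 827 and 317 to 352) lie above those of mCHERRY libraries (607 to 629 and 233 to 259), and the thiolase totals overlap.

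The mRNAs of the enzymes that mark the glyoxylate cycle were not detected. ICL, encoding isocitrate lyase, and MLS, encoding malate synthase, had 0 counts in all 6 libraries, which allows up to 0.255 to 0.722 CPM per library (3 counts, counting error only). By the edgeR adjusted p, 20.4% of all genes tested were higher and 14.6% lower. Of the 4 tested genes assigned to the cycle, 0 passed the edgeR test, 0 had an unadjusted p under 0.05, and 0 passed with DESeq2 or the edgeR exact test. They were the peroxisomal citrate synthase genes CSY2 (log2 fold change -0.04) and CSY3 (-0.15) and the peroxisomal malate dehydrogenase genes PMDH1 (-0.18) and PMDH2 (0.12). CSY2 was the most abundant of these per kb, at 93.1 CPM per kb in mCHERRY and 90.5 in GmWRI1 libraries, and PMDH2 the least, at 8.10 and 8.56. The malate dehydrogenases also serve beta-oxidation and leaf photorespiration by moving reducing equivalents across the peroxisome.

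PCK1 (AT4G37870) encodes phosphoenolpyruvate carboxykinase, the cytosolic enzyme that commits carbon to gluconeogenesis. It was at 100.2, 140 and 132 CPM in mCHERRY and 227, 280 and 234 CPM in GmWRI1 libraries, with no overlap. The fitted log2 value, 0.998 (SE 0.11, edgeR adjusted p = 4.92e-07), fell just short of the limit of 1. Over the 13 alternatives it ran from 0.856 to 1.10 and passed the limit in 7 of them, among them those without mCHERRY replicate 2 (1.10), mCHERRY replicate 3 (1.04), GmWRI1 replicate 1 (1.06) or GmWRI1 replicate 3 (1.05). The count of up-regulated genes was then 5 in place of 4, and the 4 genes named above were in it under all 13.

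Catalases break down the hydrogen peroxide that the oxidases make. CAT2 (AT4G35090), the photorespiratory catalase of leaves, rose by 38.8%, from 627 ± 47.9 to 869 ± 50.6 CPM (SD, n = 3; log2 fold change 0.47, SE 0.09, edgeR adjusted p = 2.51e-04), and its groups did not overlap. CAT1 (AT1G20630), among the further genes listed below, was at 284 ± 9.88 CPM in mCHERRY and 281 ± 14.7 CPM in GmWRI1 libraries (SD, n = 3). It did not pass the test (log2 fold change -0.01, edgeR adjusted p = 0.928). CAT3 (AT1G20620) was at 16.9 ± 3.35 and 22.03 ± 2.15 CPM, and its groups overlapped. The fitted log2 value of 0.42 had an edgeR adjusted p of 0.0435, which rose to between 0.0517 and 0.192 without mCHERRY replicate 1 or 2 or without GmWRI1 replicate 1 or 2, and was 0.0996 with DESeq2.

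**Figure D4:**
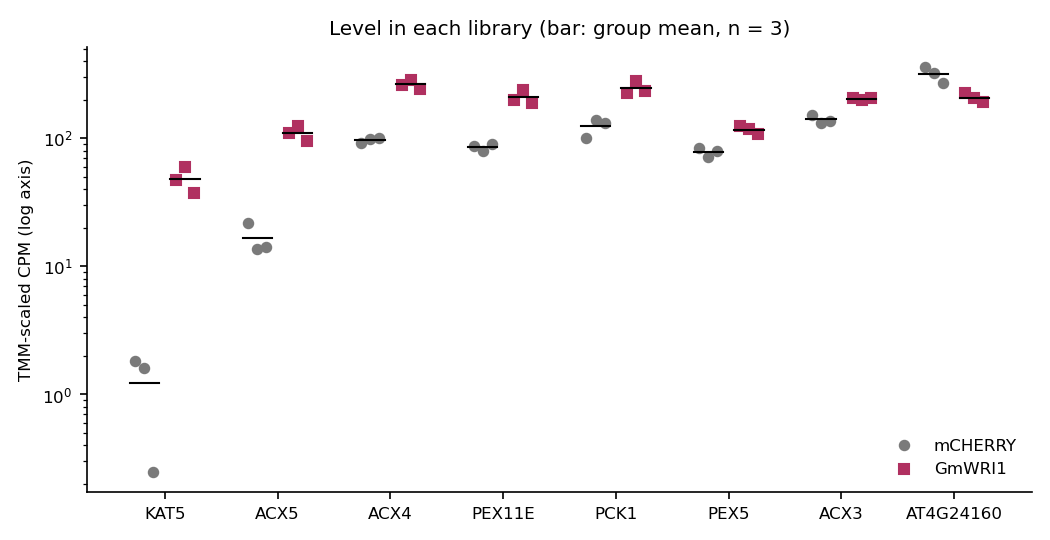
TMM-scaled CPM (log y axis) in each of 3 mCHERRY (circles) and 3 GmWRI1 (squares) libraries for the 8 genes past the adjusted p with a log2 fold change over 0.5 in size, with a bar at the group mean. In all 8 the groups do not overlap; KAT5 rises from at most 1.83 to at least 37.2 CPM, and AT4G24160 is the gene that is lower.

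Proteins reach the peroxisome matrix through the receptors PEX5 and PEX7, which read the targeting signals PTS1 and PTS2 and dock at PEX14. PEX5 (AT5G56290) was at 83.3, 71.2 and 80.2 CPM in mCHERRY and 124, 118 and 108 CPM in GmWRI1 libraries. All GmWRI1 libraries were higher, by 49.3% in the fit (log2 fold change 0.58, SE 0.10, edgeR adjusted p = 7.73e-05). PEX14 (AT5G62810) was higher by 21.0%, at 108 against 89.7 CPM (edgeR adjusted p = 0.0329). Without mCHERRY replicate 1 that p was 0.197, without mCHERRY replicate 2 0.092, without GmWRI1 replicate 2 0.0879, and with DESeq2 0.0552. PEX7 (AT1G29260), at 23.6 and 25.8 CPM, did not pass the test (log2 fold change 0.14).

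The targeting signals themselves were read from the annotated proteins of the 38 genes. A PTS1 tripeptide at the carboxyl end was present in 7 (18.4%, beside 0.5% of 27420 nuclear protein-coding genes), namely ACX1, ACX4, ACX5, MFP2, AIM1, ICL and MLS. A PTS2-like motif within the first 60 residues was present in 8 (21.1%, beside 0.153%), namely ACX2, all 3 thiolases, CSY2, CSY3, PMDH1 and PMDH2. The list was chosen by function and holds many peroxisomal enzymes, so shares above those of all genes are built into that choice. Of the 13 tested genes with either signal, 3 were up-regulated, 3 more were higher by the adjusted p and 7 did not pass, beside 9.44% up-regulated and 20.4% higher by the adjusted p among all genes tested.

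PEX11 proteins elongate and multiply peroxisomes, and the 4 genes described here moved in different ways. PEX11E (AT3G61070) was at 86.9, 79.7 and 90.3 CPM in mCHERRY and 199, 240 and 190 CPM in GmWRI1 libraries. It rose 2.45-fold (log2 1.29, SE 0.10, edgeR adjusted p = 1.57e-09), and the groups did not overlap. PEX11C (AT1G01820) was lower by 21.2%, at 73.5 ± 2.56 against 92.7 ± 10.01 CPM (SD, n = 3; log2 fold change -0.34, edgeR adjusted p = 0.0104), or 0.0898 without mCHERRY replicate 1. PEX11A and PEX11D did not pass the test, with log2 fold changes of -0.26 and 0.05. Per kb of transcript, PEX11E made up 28.0% ± 1.24 of the summed level of these 4 genes in mCHERRY and 50.8% ± 3.95 in GmWRI1 libraries (SD, n = 3).

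Peroxins that return the receptors to the cytosol include the ATPase PEX6 and the RING finger proteins PEX2 and PEX10. Of these 3 genes, 0 passed the edgeR test, beside 20.4% of all genes tested that were higher and 14.6% that were lower. Of the 3, 0 had an unadjusted p under 0.05 and 0 passed with DESeq2 or the edgeR exact test. Their log2 fold changes lay between -0.20 and 0.10. PEX6 was the scarcest of the 3 relative to its length, at 0.968 and 1.08 CPM per kb, with 27, 31 and 5 counts in mCHERRY and 44, 28 and 15 in GmWRI1 libraries, so that a difference there is poorly resolved.

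A further 37 genes of lipid breakdown and peroxisome function, listed by role, were read beside the 38. Of the 34 tested, 0 were up-regulated and 0 down-regulated by edgeR, beside 9.44% and 1.45% of all genes tested. Both counts were also 0 by DESeq2 and the exact test, and 0 passed the fold limit with an unadjusted p under 0.05. The median log2 fold change was -0.12. By the adjusted p alone 5 were higher and 7 lower, beside 20.4% and 14.6% of all genes tested. Those higher included the enoyl-CoA isomerase gene ECI2 (0.85) and CHY1 (0.80), which acts in the breakdown of branched-chain amino acids. ECI2 passed both limits without mCHERRY replicate 2 (log2 fold change 1.03). Those lower included LACS6 (-0.31) and LACS7 (-0.24), the acyl-CoA synthetases that activate fatty acids for beta-oxidation. OPCL1 (0.38) and ACN1 (0.44), listed with them under activation, were higher by the adjusted p. The summed level of these 37 genes was 3452 to 3523 CPM in mCHERRY and 3308 to 3554 CPM in GmWRI1 libraries, while the 38 summed to 5568 to 5749 and 6427 to 6570 CPM.

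Fatty acid synthesis genes changed far more in the same libraries. Of 28 genes of plastid fatty acid synthesis, 26 were up-regulated, beside 9.44% of all genes tested. The median log2 fold change of the 28 was 4.57, and their summed level went from between 546 and 563 CPM to between 5545 and 6886 CPM. Genes for the plastid pyruvate dehydrogenase complex, which supplies acetyl-CoA, rose by a log2 of 2.97 (PDH-E1 alpha), 5.82 (PDH-E1 beta), 4.02 (AT2G34590), 6.71 (LTA2), 8.95 (EMB3003), 4.55 (LPD1) and 5.25 (LPD2). Those for acetyl-CoA carboxylase, the committed step, rose by 3.24 (BCCP1), 6.06 (BCCP2), 4.88 (CAC2) and 2.86 (CAC3).

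Fatty acid synthase genes rose as well. The values were 4.45 (MCAMT), 5.37 (KASIII), 4.10 (KASI), 2.18 (KASII), 3.39 (KAR), 4.69 (HAD1), 4.59 (HAD2) and 5.24 (MOD1). Acyl carrier protein genes rose by 8.25 (ACP1), 4.92 (ACP2) and 3.05 (ACP3), and ACP5, with 0 counts in all mCHERRY libraries, was at least 147-fold higher against a floor of 3 counts per library. The desaturase gene FAB2 rose by 1.52 and the thioesterase genes FATA1 and FATA2 by 3.22 and 4.67. ACP4 (0.70) was higher and FATB (-0.36) lower by the adjusted p without reaching the fold limit. Side by side, 26 of 28 synthesis genes and 4 of 35 tested breakdown and peroxisome genes (11.4%) were up-regulated, beside 9.44% of all genes tested.

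**Figure D5:**
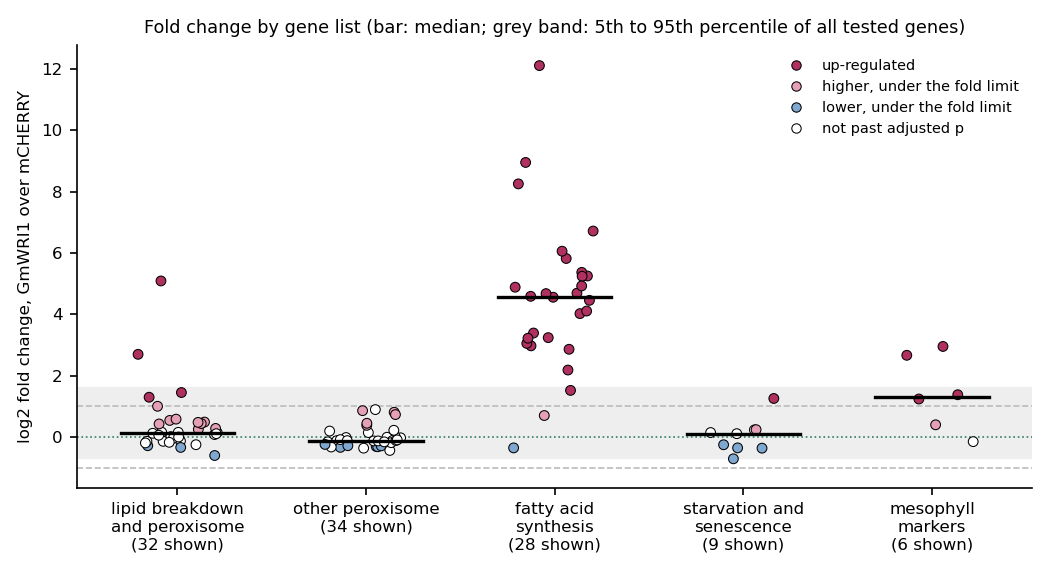
Log2 fold change of GmWRI1 over mCHERRY (y axis) for the tested genes of 5 lists (32 of the 35 breakdown and peroxisome genes), with a bar at the median of all tested genes of the list, colours giving the edgeR call, dashed lines at a log2 fold change of 1 in either direction and a grey band from the 5th to the 95th percentile of all tested genes (-0.67 to 1.59). The medians are 0.12 for the breakdown and peroxisome genes, -0.12 for other peroxisome genes, 4.57 for synthesis, 0.10 for starvation and senescence and 1.30 for mesophyll markers; the point at 12.1 is ACP5, whose fitted value depends on the prior count.

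Beta-oxidation genes are also known to rise in starved and senescing leaves, so genes of that state were read in the same libraries. Of 9 tested, 1 was up-regulated, beside 9.44% of all genes tested: NAP, a senescence NAC factor (log2 fold change 1.25). By the adjusted p alone 2 were higher, NAP among them, and 4 lower, beside 20.4% and 14.6% of all genes tested. SAG12, the defining late senescence marker, had 0 counts in all libraries. The summed level of the 10 genes was lower in GmWRI1 libraries, at 4702 to 5380 CPM against 6001 to 6187, while the median log2 fold change of the 9 was 0.10, with 5 of them positive. The sum rests mostly on SAG13 (3950 CPM in mCHERRY and 3305 in GmWRI1 libraries) and DIN2 (946 and 576 CPM), both lower by the adjusted p. Of the mesophyll markers, 5 of 6 were higher in GmWRI1 libraries by the adjusted p, beside 20.4% of all genes tested. BCA1 (log2 fold change -0.15) did not pass the test. Of the 6, 4 were up-regulated, beside 9.44% of all genes tested, namely RBCS1A (2.95), PRK (2.66), RBCS3B (1.37) and RCA (1.23). The sum of the 6 rose from between 215 and 231 to between 635 and 744 CPM. RBCS genes share sequence among close copies, so their counts are uncertain. The marker lists of epidermis, guard cells and phloem each summed to at most 3.18 CPM in any library, with GC1 at 0 throughout. The part of these marker changes in the results above was not tested.

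Library depth ranged from 4155836 to 11748328 gene counts. Replicates of a group differed by more than counting noise, at a chi-square of 3.01 to 7.34 for each degree of freedom, so none was a copy of another, and edgeR's common biological coefficient of variation came to 0.0991. The transgenes are not among the counted transcripts, and their levels were not analysed here.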

How the data were processed

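Groups, replicate numbers and ecotype were taken from the sample labels, and the 16 h time from the study's methods. The authors discarded ribosomal reads, mapped the others with Bowtie 0.12.7 against the primary transcripts of TAIR10 and kept those with 1 best location, and the deposited files hold raw counts per transcript. Strand was not stated to be used. A line naming no gene held 39.4% to 63.3% of reads and was left out. The authors' TMM table (edgeR 3.10.5) was not used. All per-sample columns matched a sample (0 set aside).

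The quasi-likelihood test of edgeR 4.0.16 was run in R 4.3.3 on genes kept by filterByExpr (minimum count 10), with TMM scaling, a group term alone and Benjamini-Hochberg adjustment over 14762 genes. Alternatives were DESeq2 1.42.0, the exact test, other scalings and filters, each library left out, and a replicate block. The edgeR test was tried on simulated counts with known changes, and the AW Box search on a motif planted on each strand. Levels are compared between genes per kb of RefSeq exon length. Gene models, starts and sequences are from the RefSeq TAIR10.1 assembly, whose starts can differ from those of the authors' annotation. All 38 loci matched a model.

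The members and lists were chosen with earlier results of these data known. Genes past the adjusted p with a log2 fold change over 0.5 in size were given in every library, other genes in groups by role, and of other lists those past both limits were named. Counts and medians over the 38 cover all of its genes, but 3 of them are not reported singly here. ECI2, CHY1, LACS6, LACS7, OPCL1, ACN1, CAT1 and BCA1 were named after their values were seen.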

Additional observations from a re-analysis of the deposited data

How the results depend on the processing

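Under the 13 alternatives, KAT5, ACX5, ACX4 and PEX11E stayed past both limits and no gene of the 38 was down-regulated. Of the 16 genes past the adjusted p, 10 remained so throughout, 6 (PXA1, MFP2, KAT1, CAT3, PEX14 and PEX11C) lost it in at least 1, and 0 gained it. Genes higher by the adjusted p numbered 9 to 13 and those lower 2 to 3. The median of the 35 ran from 0.09 to 0.15. PCK1 passed the limit with library size alone (1.041), with no filter on low counts (1.007), with the replicate block (1.006) and in 4 of the fits without a library, which ran from 0.856 to 1.095. Signs reversed in 5 of the 32 genes reported singly, all of them not past the adjusted p, and the cause was not tested. ACX1 was -0.000584 with DESeq2-type size factors and -0.000478 with the DESeq2 Wald test. PEX10 was 0.02807 with library size alone and 0.004278 with no filter on low counts. Over the fits without a library, the values ran as follows: PNC1 from -0.0277 to 0.168, ACX1 from -0.0180 to 0.0391, PEX11D from -0.0204 to 0.113, PEX6 from -0.189 to 0.522 and PEX10 from -0.301 to 0.134. Other peroxisome genes had 0 to 1 up-regulated over those fits. The AW Box count was 26 in 1000 bases downstream (68.4%, beside 59.1% of tested nuclear genes). Within 500 bases upstream it was 5 (13.2%, beside 19.5%). The PTS1 count was 11 with a broader tripeptide (28.9%, beside 2.22% of nuclear protein-coding genes). Same-numbered libraries deviated together with correlations of 0.103, -0.0075 and 0.043, so the numbers were not taken as pairs. The replicate block called 5 genes up-regulated, PCK1 among them. Depth limits the scarce genes most: ICL and MLS at 0, SDP1L, PEX6 and the mCHERRY level of KAT5.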
